A study of Homo sapiens with 2 samples.

Results

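The 8 protein arginine methyltransferase genes other than PRMT5 were examined in Tu212 cells, an epithelial-derived line from a human squamous cell carcinoma of the head and neck. They are PRMT1, PRMT2, PRMT3, CARM1, PRMT6, PRMT7, PRMT8 and PRMT9, chosen by symbol from the 58302 genes of the table, and each stood on 1 row. One library came from cells given a pEZ plasmid encoding PRMT5 (PRMT5 overexpression) and 1 from cells given the empty pEZ vector (vector control), both after 48 h. The sources used here do not give the dose, the promoter of the plasmid or the share of cells that took it up. The measured RNA was polyadenylated. With 1 library per group no difference has a replicate check and no p-value is given, so every ratio describes a pair of libraries. Intervals are 95% Clopper-Pearson intervals of the read counts. Reads are not independent molecules, so the intervals cover counting error only.

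Protein arginine methyltransferases transfer methyl groups from S-adenosylmethionine to the guanidino nitrogens of arginine. Type I enzymes (PRMT1, PRMT2, PRMT3, CARM1, PRMT6 and PRMT8) finish with asymmetric dimethylarginine, type II enzymes (PRMT5 and PRMT9) with symmetric dimethylarginine, and the type III enzyme PRMT7 stops at monomethylarginine. PRMT1 and PRMT5 carry out most asymmetric and most symmetric dimethylation in mammalian cells, and several enzymes of different types can compete for the same arginine. Known substrates include histone tails and many RNA-binding and splicing proteins.

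The coding stretch of the double-E loop is shown for the 6 type I genes, because this catalytic loop shows how far the closest copies can be told apart by sequence. Capitals mark the codons of the pair of glutamates that hold the substrate arginine.
PRMT1: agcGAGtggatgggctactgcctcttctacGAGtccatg
PRMT8: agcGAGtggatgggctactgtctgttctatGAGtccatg
PRMT6: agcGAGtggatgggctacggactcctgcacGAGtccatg
PRMT2: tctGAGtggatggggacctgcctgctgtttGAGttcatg
PRMT3: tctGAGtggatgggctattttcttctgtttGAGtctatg
CARM1: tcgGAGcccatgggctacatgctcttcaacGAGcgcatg
All are on the plus strand in GRCh38, read from GENCODE release 29 transcripts, and 39 bases long. They lie at chr19:49683995-49684033 in PRMT1, chr12:3568774-3568812 in PRMT8, chr1:107057175-107057213 in PRMT6 and chr19:10913973-10914011 in CARM1. In PRMT2 and PRMT3 the stretch crosses an intron, so its ends span chr21:46649713-46658756 and chr11:20426854-20452156. The letter pattern searched was that of type I enzymes, and it had 0 matches in the coding sequences of PRMT7, PRMT9 and PRMT5. No match does not show that these genes lack such a loop. PRMT1 and PRMT8 differed at 3 of the 39 bases, PRMT1 and PRMT6 at 5, and PRMT2 and CARM1, the most different pair, at 18.

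PRMT7 and PRMT9 matched the pattern searched for the glycine-rich motif I that binds S-adenosylmethionine, as did the other 6 members. PRMT5, which also uses that donor, had 0 matches. The motif is shown for PRMT7 and PRMT9 because it is a stretch that they share with the type I members. Capitals mark the codons of the first and second glycine of the motif.
PRMT7: gttctcgacattGGCactGGCacggga
PRMT9: gttttggacattGGAgcaGGAactgga
The PRMT7 stretch is at chr16:68324752-68324778 on the plus strand and the PRMT9 stretch at chr4:147673646-147673672 on the minus strand. Over whole coding sequences PRMT1 and PRMT8 were the most alike pair of the family, with 68.6% identical bases in a global alignment and a longest identical run of 44 bases. PRMT1 and PRMT6 came next at 54.1%. None of the 7 members other than PRMT8 shared any 50-base stretch of its longest transcript, tested every 10 bases, with transcripts of other genes that do not share its exons. PRMT8 shared 3 of 585 stretches, MYO5A being the gene that held the most. The sources used here do not give the read length.

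Gene counts summed to 19908258 reads in PRMT5 overexpression and 14119997 in the vector control. Scaled values are CPM, read counts relative to library size after TMM scaling. The targeted gene PRMT5 had 5770 reads in the library labelled PRMT5 overexpression against 2068 in the vector control, or 293 against 145 CPM, a log2 ratio of 1.01 (interval 0.94 to 1.09). All 8 epithelial markers had reads in both libraries, with a summed level of 9453 CPM in PRMT5 overexpression and 8518 CPM in the vector control. The 7 fibroblast markers summed to 81.1 against 98.3 CPM, of which COL1A1 made 79.0 CPM in PRMT5 overexpression and 92.6 CPM in the vector control. Of the 5 that passed 10 reads, 5 were below 0 and 3 were 1.5-fold or more lower: COL1A2 had 7 against 26 reads, COL3A1 2 against 11 and DCN 0 against 12. The 6 leukocyte markers summed to 17.1 against 21.9 CPM, of which CD68 made 16.2 CPM in PRMT5 overexpression and 20.1 CPM in the vector control. The log2 ratio of CD68 was -0.30, and 0.32 once summed with the genes that share its exon bases. ITGAM, 1 of 2 leukocyte markers that passed 10 reads, was 1.5-fold or more lower, with 3 against 12 reads, also a low count. The 5 endothelial markers summed to 4.46 against 5.96 CPM. CD3E and PECAM1 were at 0 in PRMT5 overexpression, PTPRC was at 0 in the vector control, and CDH5 and KDR were at 0 in both. The part of these markers in any member's value was not tested.

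The other arginine methyltransferase genes differed little between the libraries beside the higher PRMT5. Of the 8 members, 7 had 10 or more reads in at least 1 library, and 0 of these 7 were 1.5-fold or more higher or lower. Among all 17777 genes past the same floor, 12.4% were 1.5-fold or more apart, 7.06% higher and 5.33% lower. Among the 8621 genes with a mean of 255.5 to 3025 reads, the range of the 7 members, 3.58% were, 1.79% higher and 1.8% lower. At 2-fold the count was again 0 of 7, against 4.84% of all genes past the floor and 1.11% in the read range. All 7 members lay within 1.2-fold, as did 84.6% of the genes in that read range and 67.4% of all genes past the floor. A count of 0 among 7 is therefore near the background. The 95% counting intervals of all 7 lay inside 1.5-fold on both sides, and 0 of these intervals reached the log2 ratio of PRMT5. The log2 ratio itself, a stricter measure than its interval, was at or above that of PRMT5 for 2.8% of all genes past the floor. In the read range it was so for 0.522%. For these 7 a 1.5-fold difference between the libraries lay outside counting error.

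**Figure D1:**
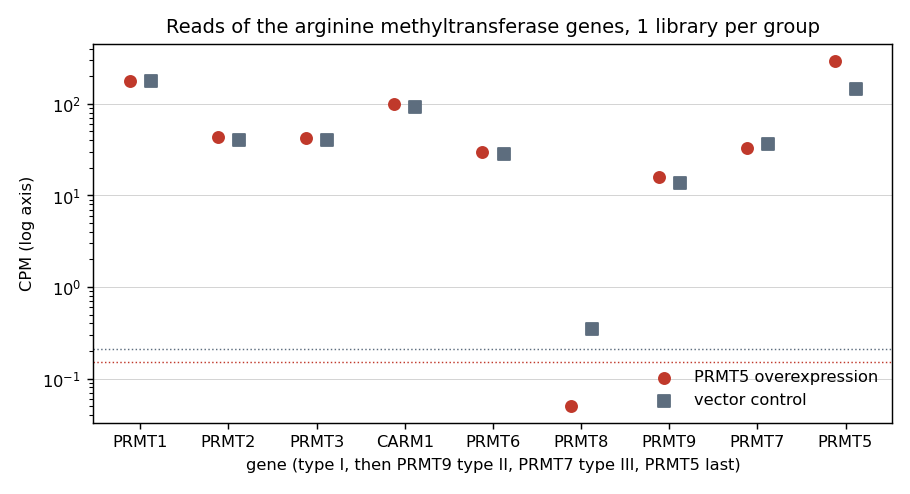
CPM of the 8 members and PRMT5 on a log axis, with circles for the PRMT5 overexpression library and squares for the vector control library (1 each); the dotted lines are the levels of 3 reads in each library, 0.152 and 0.210 CPM. The points of each member lie side by side except for PRMT8, at 0.0507 CPM in PRMT5 overexpression and 0.351 CPM in the vector control, and PRMT5, at 293 CPM in PRMT5 overexpression and 145 CPM in the vector control.

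PRMT1, which makes most of the asymmetric dimethylarginine of mammalian cells, had 3528 reads in PRMT5 overexpression and 2521 in the vector control, or 179 and 177 CPM. It was the most read member, and its libraries were nearly level. The log2 ratio was 0.02 (interval -0.06 to 0.09), and it was -0.01 when libraries were scaled by total count only. PRMT1 (ENSG00000126457) lies on chromosome 19 from 49675786 to 49689029 on the plus strand, with 21 annotated transcripts in GENCODE release 29. It shares 366 exon bases with ADM5 on the same strand, but ADM5 held only 13 reads in PRMT5 overexpression and 15 in the vector control. Summed with ADM5, the log2 ratio was 0.01.

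CARM1, or PRMT4, is the coactivator-associated enzyme that methylates histone H3 and transcription and splicing factors. It had 1981 reads in PRMT5 overexpression and 1330 in the vector control, or 100.5 and 93.3 CPM. The log2 ratio was 0.11 (interval 0.01 to 0.21). CARM1 was the only member whose interval did not include 0, and with total count scaling it did, from -0.02 to 0.18. An interval off 0 was found for 28.6% of all genes past the floor, 14.3% above and 14.3% below, and for 36.0% in the members' read range, 17.2% above and 18.8% below. The 1 of 7 is not more than that background. CARM1 (ENSG00000142453) lies on the plus strand of chromosome 19 from 10871513 to 10923070 and shares 886 exon bases with YIPF2 on the opposite strand. YIPF2 held 1268 reads in PRMT5 overexpression and 844 in the vector control (log2 ratio 0.12), and the sources used here do not say whether the counting used strand. Summed with YIPF2, the log2 ratio of CARM1 was again 0.11.

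PRMT2, a weakly active enzyme with an SH3 domain, had 853 reads in PRMT5 overexpression and 574 in the vector control, or 43.3 and 40.3 CPM. PRMT3, the cytosolic zinc-finger enzyme that methylates ribosomal protein S2, had 828 reads in PRMT5 overexpression and, like PRMT2, 574 in the vector control, or 42.0 and 40.3 CPM. Their log2 ratios were 0.10 (interval -0.05 to 0.26) and 0.06 (interval -0.09 to 0.22). Both intervals include 0. PRMT6, a nuclear enzyme that methylates histone H3 and is encoded by a principal transcript of 1 exon, had 581 reads in PRMT5 overexpression and 402 in the vector control, or 29.5 CPM in PRMT5 overexpression and 28.2 CPM in the vector control. The log2 ratio of PRMT6 was 0.06 (interval -0.12 to 0.25). PRMT2 (ENSG00000160310) lies on chromosome 21 from 46635167 to 46665124, PRMT3 (ENSG00000185238) on chromosome 11 from 20387530 to 20509294, and PRMT6 (ENSG00000198890) on chromosome 1 from 107056679 to 107059294, all on the plus strand. None of them shares exon bases with another counted gene.

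PRMT9, the second enzyme that makes symmetric dimethylarginine and whose known substrate is the splicing factor SF3B2, had the highest log2 ratio of the 7. It had 316 reads in PRMT5 overexpression and 195 in the vector control, or 16.03 and 13.7 CPM. The log2 ratio was 0.23, and its interval of -0.03 to 0.49 includes 0. PRMT9 also had the fewest reads of the 7 and so the widest interval. On chromosome 4, PRMT9 (ENSG00000164169) runs from 147637785 to 147684230 on the minus strand.

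PRMT7, the monomethylating enzyme, was the only one of the 7 with a log2 ratio below 0. It had 658 reads in PRMT5 overexpression and 514 in the vector control, or 33.4 and 36.0 CPM. The log2 ratio was -0.11, and its interval of -0.28 to 0.06 includes 0 too. PRMT7 (ENSG00000132600) lies on the plus strand of chromosome 16 from 68310974 to 68358563 and shares 239 exon bases with SMPD3, which held 22 reads in PRMT5 overexpression and 20 in the vector control. Summed with SMPD3, the log2 ratio was -0.12.

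**Figure D2:**
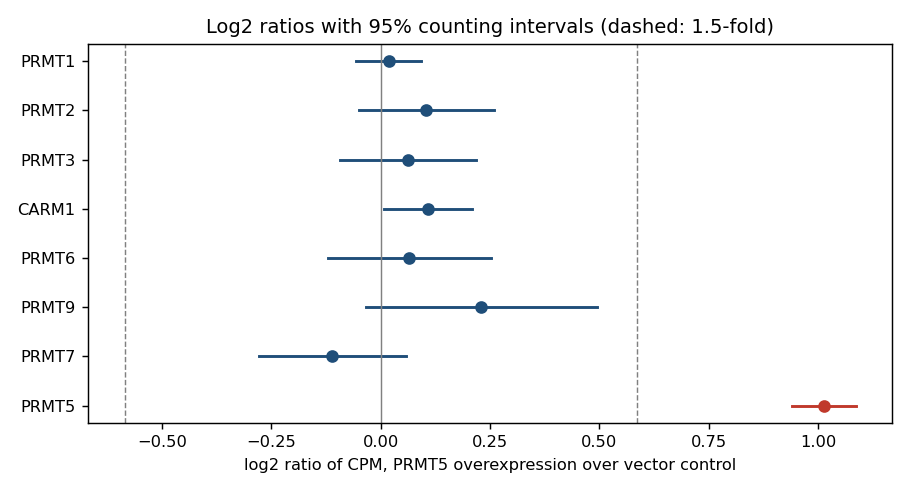
Log2 ratios of CPM, PRMT5 overexpression over vector control, for the 7 measured members and PRMT5 (points), with 95% counting intervals (bars) and dashed lines at 1.5-fold. The members run from -0.11 (PRMT7) to 0.23 (PRMT9) with all intervals inside the dashed lines, while PRMT5 stands apart at 1.01.

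PRMT8, the membrane-anchored type I enzyme known from brain, was at the edge of detection. It had 1 read in the PRMT5 overexpression library and 5 in the vector control, or 0.0507 and 0.351 CPM, and did not pass the floor of 10 reads. The ratio of CPM was 0.145, and the interval of its log2 ran from -8.35 to 0.37. A difference was not detectable at this depth. Of 6 neuronal markers, RBFOX3, SNAP25 and STMN2 had 0 reads in the vector control and 1 or 2 in PRMT5 overexpression. NEFL, MAP2 and SYT1 were read in both, at 71.4, 26.4 and 9.94 CPM in PRMT5 overexpression. In the vector control they were at 65.6, 28.2 and 14.2 CPM. The log2 ratio was 0.12 for NEFL (interval 0.0031 to 0.24) and -0.09 for MAP2 (interval -0.28 to 0.10). For SYT1 it was -0.51 (interval -0.80 to -0.22). PRMT8 (ENSG00000111218) lies on chromosome 12 from 3381349 to 3593973 on the plus strand.

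The promoters of PRMT8 and PRMT3 are shown because PRMT8 had almost no reads and its first listed promoter had the lowest CpG content of the family, while that of PRMT3 had the highest CpG ratio. Both run from 250 bases before to 50 after a start site on the plus strand, from RefSeq (GRCh38.p14), and capitals mark the CG dinucleotides.
PRMT8: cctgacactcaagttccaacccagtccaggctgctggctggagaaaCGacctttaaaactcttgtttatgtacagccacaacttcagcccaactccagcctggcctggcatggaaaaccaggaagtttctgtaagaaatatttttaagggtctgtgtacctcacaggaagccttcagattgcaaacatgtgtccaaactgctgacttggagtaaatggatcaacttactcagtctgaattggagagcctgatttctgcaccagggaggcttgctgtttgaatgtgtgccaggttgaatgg
PRMT3: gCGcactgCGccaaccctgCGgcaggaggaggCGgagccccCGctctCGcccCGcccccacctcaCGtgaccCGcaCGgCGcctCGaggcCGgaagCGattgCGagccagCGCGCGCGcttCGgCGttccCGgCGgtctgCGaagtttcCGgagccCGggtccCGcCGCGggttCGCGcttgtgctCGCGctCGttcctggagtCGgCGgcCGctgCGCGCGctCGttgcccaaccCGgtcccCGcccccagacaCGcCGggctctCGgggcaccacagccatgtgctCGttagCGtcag
The PRMT8 stretch is chr12:3381099-3381398 and the PRMT3 stretch chr11:20387466-20387765. The PRMT8 stretch held 1 CG dinucleotide at a GC content of 47%, and its observed over expected CpG ratio was 0.0604. The PRMT3 stretch held 48 at a GC content of 75%, with a ratio of 1.15. A second listed PRMT8 start, at chr12:3490953-3491252, had 30 CG dinucleotides and a ratio of 0.751. The promoters of the other members had ratios from 0.734 to 1.10, and 48.8% of 35116 RefSeq promoters of the same length had a ratio above 0.6. The letters CACGTG, the same on both strands and known as the E-box that MYC and MAX bind, were searched because MYC was at 7.71 CPM in PRMT5 overexpression against 114 CPM in the vector control. They occurred in the promoter of PRMT3 only, 187 bases before the start, and in 7.26% of all promoters. A match of letters does not show a site in use.

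As a group, the 7 measured members had a median log2 ratio of 0.06, where all genes past the floor had a median of 0.0022 and genes in the members' read range a median of -0.0063. Of the 7, 6 were above 0 and 1 below, while 50.4% of all genes past the floor and 48.4% in that read range were above 0. The 5 and 95 percentiles of genes in the read range were -0.34 and 0.33, and all 7 members lay between them. The 5 measured type I genes ran from 0.02 to 0.11. Summed over all 8 members, there were 8746 reads in PRMT5 overexpression and 6115 in the vector control, or 444 and 429 CPM. The log2 ratio of that sum was 0.05 (interval 0.0018 to 0.096), so the lower bound barely cleared 0. With total count scaling the median of the 7 members was 0.04 in place of 0.06. The sum was not recalculated with other scaling, but a change of scaling shifts all intervals alike. Total count scaling moved the lower bound of CARM1 from 0.0067 to -0.022. The lower bound of the sum, 0.0018, was below that of CARM1, so with total counts the interval of the sum would include 0.

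**Figure D3:**
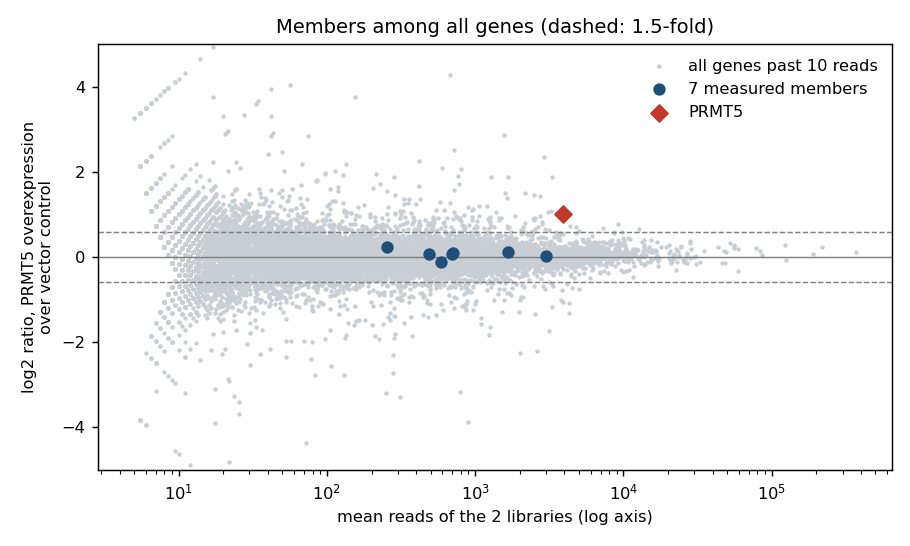
Log2 ratio (PRMT5 overexpression over vector control) against the mean reads of the libraries on a log axis, for genes past the floor of 10 reads (grey), the 7 measured members (blue circles) and PRMT5 (red diamond); dashed lines are 1.5-fold and 12 genes lie outside the plotted range of 5 either way. The members sit within the dense band of genes of like read count and PRMT5 above it.

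Levels of different genes were compared as CPM per kilobase of merged exons. PRMT1 stood first in both libraries, at 37.3 in PRMT5 overexpression and 36.9 in the vector control, and CARM1 second, at 22.6 in PRMT5 overexpression and 20.9 in the vector control. PRMT1 exceeded CARM1 by 1.65 times (interval 1.57 to 1.75) in PRMT5 overexpression and by 1.76 times (interval 1.65 to 1.88) in the vector control. In PRMT5 overexpression, PRMT3 followed at 7.68, PRMT6 at 6.80 and PRMT2 at 5.39. In the vector control they were at 7.36, 6.50 and 5.01. The ratio of PRMT3 to its neighbour PRMT6 was 1.13 in both libraries. For these lengths its interval was 1.015 to 1.26 in PRMT5 overexpression, beyond counting error. In the vector control it was 0.995 to 1.29, within counting error. The length taken for PRMT6, 4335 bases, reaches past the deposited end of that gene, so the order of PRMT3 and PRMT6 is not secure. PRMT9 at 3.99 stood above PRMT7 at 3.53 in PRMT5 overexpression, and PRMT7 at 3.81 above PRMT9 at 3.40 in the vector control. In neither library was their ratio beyond counting error, with intervals of 0.985 to 1.29 for PRMT9 over PRMT7 in PRMT5 overexpression and 0.948 to 1.33 for PRMT7 over PRMT9 in the vector control. PRMT8 was last, at 0.00764 in PRMT5 overexpression and 0.0528 in the vector control.

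The middle of this order depends on the length used. The deposited FPKM put PRMT6 second, at 11.2 in PRMT5 overexpression and 10.9 in the vector control, above CARM1 at 10.6 in PRMT5 overexpression and 10.002 in the vector control. For PRMT6 the table ends the gene at 107059294 where GENCODE release 29 ends it at 107067636, and its FPKM implies a length of 2616 bases against 4335 bases of merged exons. For PRMT1 the FPKM implies 8360 bases against 4796 bases of merged exons and 1686 in its longest transcript. PRMT3 stood above PRMT6 per merged exon length only, the length that reaches past the deposited end of PRMT6. The FPKM of PRMT3, 4.82 in PRMT5 overexpression and 4.71 in the vector control, was below that of PRMT6. Per longest transcript PRMT6 was at 10.9 and PRMT3 at 10.1 in PRMT5 overexpression. In the vector control they were at 10.4 and 9.68 on that scale. PRMT1 was first and PRMT8 last under each of the 3 lengths in both libraries.

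**Figure D4:**
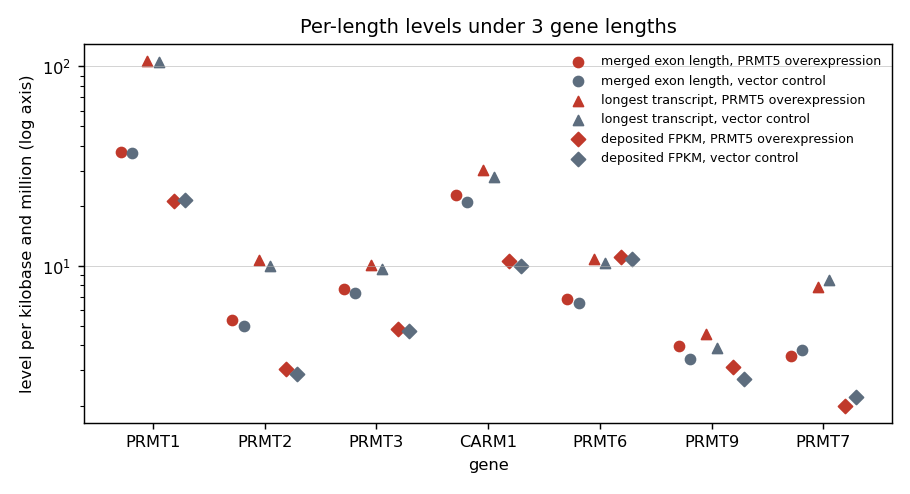
CPM per kilobase, or FPKM, on a log axis for the 7 measured members, with circles for merged exon length, triangles for the longest transcript and diamonds for the deposited FPKM, red for PRMT5 overexpression and grey for vector control. PRMT1 is highest on each scale, and PRMT6 overtakes CARM1 only in the deposited FPKM.

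On the per-length scale PRMT5 made up 49.2% of the summed level of the 9 family genes in PRMT5 overexpression and 33.3% in the vector control. With the deposited FPKM the share was 30.6% in PRMT5 overexpression and 18.5% in the vector control. That FPKM implies 11773 bases for PRMT5, against 3467 bases of merged exons. This is longer than the whole gene, which runs from 22920511 to 22929585, so the FPKM shares are not secure. By reads alone the PRMT5 share was 39.7% (interval 39.0% to 40.6%) in PRMT5 overexpression and 25.3% (interval 24.3% to 26.2%) in the vector control. Within the sum of the other 8, the PRMT1 share was 42.8% per merged exon length in PRMT5 overexpression and 43.9% in the vector control. That share too depended on the length, at 58.8% in PRMT5 overexpression and 59.8% in the vector control per longest transcript, and 37.9% in PRMT5 overexpression and 39.0% in the vector control by FPKM. In these counts, PRMT5 reads from the plasmid cannot be told apart from those of the endogenous gene.

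Both arginine methyltransferases outside the family had a log2 ratio below 0. NDUFAF7, the mitochondrial enzyme that methylates a complex I subunit, was at -0.10 and METTL23, a histone H3 methyltransferase, at -0.15. Both intervals include 0. Of the tested stretches of METTL23, 15.8% occur in other genes, so its reads are less certain. Among 8 genes whose products bind or regulate members, 7 passed the floor, with a median of 0.03. Of these 7, 0 were 1.5-fold apart, against 12.4% of all genes past the floor, too few genes to set apart from that share. RPS2, the PRMT3 substrate, was at 0.38 (656 CPM in PRMT5 overexpression, 503 CPM in the vector control), and 43.3% of its tested stretches occur in other genes, so its reads are uncertain. SF3B2 was at 0.03 (311 CPM in PRMT5 overexpression and 304 CPM in the vector control). EPB41L3, which encodes an inhibitor of PRMT3, had 1 read in PRMT5 overexpression and 0 in the vector control.

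The genes that supply and recycle the methyl donor had ratios on both sides of 0. Of 14, 11 passed the floor, with a median of 0.009, 1 at 1.5-fold or more higher and 1 lower. Among all genes past the floor 7.06% were higher and 5.33% lower, and 1 of 11 is too few to set apart from these shares. MAT2A, the S-adenosylmethionine synthetase of most tissues, was at 395 CPM in PRMT5 overexpression and 495 CPM in the vector control. The log2 ratio of MAT2A was -0.32 (interval -0.37 to -0.28), and -0.23 once summed with GGCX, which shares 558 exon bases on the opposite strand. AHCY, which clears the inhibitory product S-adenosylhomocysteine, was at 0.21 (340 CPM in PRMT5 overexpression and 294 CPM in the vector control) and AHCYL1 at 0.11 (247 CPM in PRMT5 overexpression and 230 CPM in the vector control). AHCYL2, an AHCY-like protein, was 1.55-fold higher, at 35.9 CPM in PRMT5 overexpression and 23.1 CPM in the vector control, a log2 ratio of 0.63 (interval 0.44 to 0.83). GNMT, a methyl donor consumer known from liver, had 10 reads in PRMT5 overexpression and 17 in the vector control, and its log2 ratio of -1.14 had an interval of -2.52 to -0.02. GNMT shares 11 exon bases with PEX6 on the opposite strand, and the log2 ratio of their sum was 0.11. That sum holds all reads of PEX6, which are not given here, so it cannot show whether reads of GNMT were misassigned.

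The 6 Tudor-domain readers of methylarginine had a median of -0.05. Of these 6, 0 were 1.5-fold apart, against 12.4% of all genes past the floor, again too few genes to set apart. SND1 was at 0.17 and SMNDC1 at -0.15, while SMN1 at -0.08 is uncertain because 96.7% of its tested stretches occur in other genes, chiefly SMN2. Of 9 genes for other fates of arginine, 5 passed the floor, with a median of -0.07 and 1 at 1.5-fold or more higher. Among all genes past the floor 7.06% were, and 1 of 5 is too few to set apart from that share. The 1 higher gene was DDAH2, which hydrolyses free methylarginine. It had 729 reads in PRMT5 overexpression and 296 in the vector control, or 37.0 and 20.8 CPM, a log2 ratio of 0.83 (interval 0.64 to 1.03). DDAH2 shares 37 exon bases with CLIC1 on the same strand, and the log2 ratio of their sum was 0.24. That sum holds all reads of CLIC1, which are not given here. It therefore cannot show whether reads of DDAH2 were misassigned. Its paralog DDAH1 was at -0.07 and JMJD6, once proposed as an arginine demethylase, at -0.26. PADI6 and AGXT2 had no reads, which allows up to 0.152 CPM in PRMT5 overexpression and 0.210 CPM in the vector control at 3 reads.

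Of the PRMT1 and CARM1 substrate lists, 0 genes past the floor were 1.5-fold apart. That compares with 12.4% of all genes past the floor and 3.58% in the members' read range, so a count of 0 is not set apart. Many of the listed genes had an interval off 0. That was so for 28.6% of all genes past the floor and 36.0% in the members' read range. Several listed genes had far more reads than that range, such as EGFR with 30166 in PRMT5 overexpression. More reads give narrower intervals, and the share among genes of like depth was not tested. The PRMT1 list had 17 of 18 genes past the floor and a median of 0.05. Its log2 ratios ran from -0.13 to 0.43, with 12 above 0 and 5 below, and 7 intervals lay above 0 and 2 below. The highest was CIRBP, a cold-inducible RNA-binding protein, at 106 CPM in PRMT5 overexpression and 78.5 CPM in the vector control (log2 ratio 0.43, interval 0.33 to 0.54). Of the most abundant, the log2 ratios put EGFR at -0.13, HNRNPA2B1 at 0.12 and HNRNPK at 0.12. The CARM1 list had 10 genes and a median of 0.07. Its log2 ratios ran from -0.14 to 0.23, with 6 above 0 and 4 below, and 5 intervals lay above 0 and 3 below. The most abundant were below 0, with PKM at -0.12, PABPC1 at -0.11 and SMARCC1 at -0.03, while SNRPC, a component of the U1 spliceosomal particle, was highest. Of HNRNPK and PABPC1, 13.4% and 11.6% of tested stretches occur in other genes. These are transcript levels, and methylation of the proteins was not measured.

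**Figure D5:**
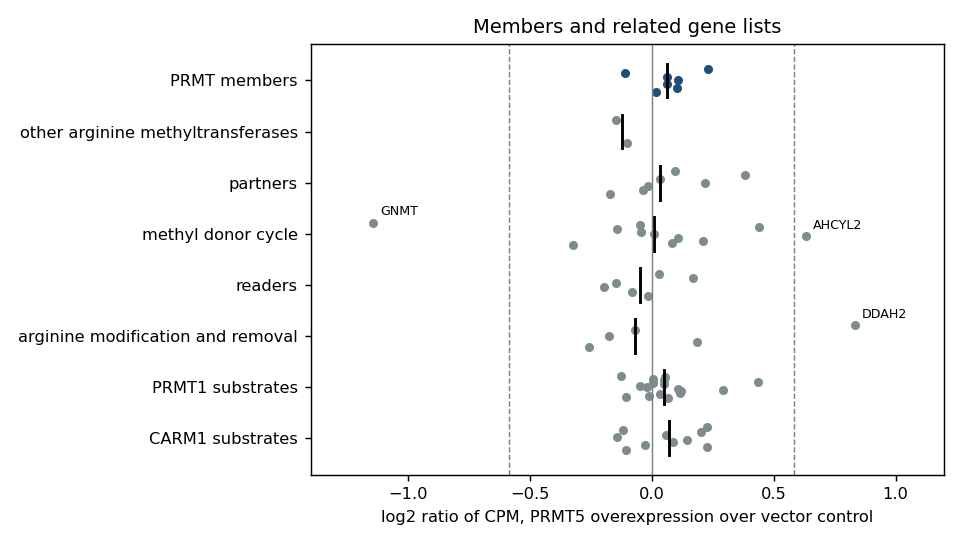
Log2 ratios (PRMT5 overexpression over vector control) of genes past the floor of 10 reads, by list, with 1 point per gene, black bars at list medians and dashed lines at 1.5-fold. AHCYL2 at 0.63, DDAH2 at 0.83 and GNMT at -1.14 are the genes past the dashed lines, and the median of the members is at 0.06.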

How the data were processed

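RNA-seq libraries of Tu212 cells, 1 for PRMT5 overexpression and 1 for the vector control, were grouped by the genotype in the labels. Per the submitters' processing notes, CASAVA 1.8, HISAT2 2.1.0, StringTie 1.3.4b, edgeR and the builds GRCh38 and hg38 were used, with no roles named. The authors deposited raw counts and FPKM values per gene, and 0 per-sample columns were left unused. For 100% of the 11478 genes over 100 reads in each library, the ratio of deposited FPKM matched that of counts over total counts within 1%, so 1 length per gene was used.

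Rows of a symbol were summed. Log2 CPM (prior count 1) used TMM factors of 0.990 for PRMT5 overexpression and 1.01 for the vector control, from genes past a floor of 10 reads in either library (edgeR 4.0.16, R 4.3.3). No test was run, as there are no replicates. The procedure was tested on simulated data. Exon lengths, overlaps and coding stretches came from GENCODE release 29, in which 58039 of 58302 gene IDs were found and 56567 had the table's start and end. Named genes were the members, PRMT5, their exon-sharing genes and, per list, those 1.5-fold apart and the 3 with the highest mean CPM; markers, MYC, EPB41L3, CIRBP, SNRPC, PADI6 and AGXT2 were named outside it, after their values were seen. A gene that this rule names is not reported here. Members and lists were chosen with earlier results of these data known. The results were recalculated with size factors of DESeq2 1.42.0, total counts, a prior count of 0.1 or 5, no floor, a floor of 50 reads, 2-fold, the highest row per symbol, sums with exon-sharing genes and the FPKM with a pseudocount of 1. The longest transcript as a length was added after seeing the data.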

Additional observations from a re-analysis of the deposited data

How the results depend on the processing

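Of 58 recalculated log2 ratios of the 9 family genes, 57 stayed within their counting intervals. The highest row per symbol had to give the reported value for the 8 members, each on 1 row, so it tests nothing there. The PRMT8 interval of -8.35 to 0.37 could hardly be left either. PRMT5 moved to 0.93 with the deposited FPKM, which differ in both scaling (0.98 with total counts alone) and pseudocount. PRMT1 was at -0.01 with total counts and with FPKM, and no other gene changed sign. With no floor, 1 member, PRMT8, was counted as 1.5-fold lower, from 1 and 5 reads. All 40 recalculated list medians stayed within the medians of their members' interval bounds, and that of the methyl donor cycle became -0.02 with total counts and 0 with no floor. Against the order of the 8 members per merged exon length, 3 kept their place with FPKM in each library, and 3 in PRMT5 overexpression and 5 in the vector control with the longest transcript. The PRMT5 share of the family, 49.2% in PRMT5 overexpression and 33.3% in the vector control, became 30.6% and 18.5% with FPKM, 39.7% and 25.3% by reads and 39.1% and 24.6% with the longest transcript, since each scale divides by other lengths. No paired analysis was possible because there is only 1 library in a group.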
